A study of Mus musculus with 4 samples.

Results

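The PYHIN genes are a family of interferon-inducible genes that stand side by side on mouse chromosome 1. Rows were taken by gene symbol for 10 of them, Aim2, Ifi203, Ifi204, Ifi206, Ifi207, Ifi208, Ifi209, Ifi213, Ifi214 and Mndal, out of 55426 genes in the table. They were chosen because neighbouring genes of the cluster were lower together in the comparison described here, so their own values in it are given as a description, with no p-value. The members were part of the fit over all genes, and the calls it made for them are counted below without being used as support. The label holds in part only: Ifi209 and Ifi206 were lower, Aim2, with the most reads of the family, was not, and the remaining 7 had 19 counts in all. Messenger RNA, selected by its poly(A) tail, was sequenced from 4 libraries of mouse bone marrow cells depleted of lineage-positive cells, transformed and kept in culture, which the labels call transformed HSPCs (haematopoietic stem and progenitor cells). In 2 libraries the cells carried the MLL-ENL fusion, which joins the histone methyltransferase MLL to the chromatin reader ENL. In the other 2 they carried MLL-ENL ∆YEATS, labelled with ENL residues 372 to 559 and called MLL-ENL dYEATS here, a fusion without the YEATS domain by which ENL binds acylated histone tails. All cells thus carried a fusion and no untransformed cells stand beside them. The titles of the MLL-ENL libraries give no ENL residues, so whether the fusions differ by more than the YEATS domain is not known here. The promoter of the transgene, the number of clones and the age of the mice do not stand in the sources used here. Since the design text speaks of technical replicates, p-values measure the spread between such libraries, and genotype and cell line cannot be told apart.

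PYHIN proteins pair a PYRIN domain, which binds other PYRIN domains, with HIN domains, which grip the backbone of double-stranded DNA with little regard for sequence. AIM2 is the best known of them: on DNA in the cytosol it gathers the adaptor ASC (Pycard) and caspase-1, which matures interleukin-1 beta and interleukin-18 and cleaves gasdermin D to open pores in the membrane. Mouse IFI204 is often set beside human IFI16 as a nuclear and cytosolic DNA sensor that signals through STING (Tmem173). The genes between Aim2 and Ifi203 arose largely by local duplication in rodents, and their number differs between mouse strains. Many of them are expressed in myeloid cells and induced by type I interferon.

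Libraries held 27812855 to 28814798 expected counts, which are RSEM's estimates of the reads from each gene. A level in CPM is a count scaled to a common library size by edgeR's TMM factors, and 3 counts, the limit that a count of 0 allows, lie between 0.102 and 0.112 CPM. Intervals and this limit cover counting error only. The MLL-ENL pair was further apart (SD of the log2 ratio 0.386 across genes) than the MLL-ENL dYEATS pair (0.176). Of 16 granulocyte and monocyte markers all 16 passed the detection filter, and their summed level was 9400 and 8350 CPM with MLL-ENL and 5780 and 5840 CPM with MLL-ENL dYEATS. That sum is carried by primary granule genes such as Elane (3730 and 3110 against 1770 and 1820 CPM), whereas the list went both ways: 6 members were called lower and 4 higher (Spi1, Csf1r, S100a8 and S100a9), with a median log2 difference of 0.02. Of 9 stem and progenitor markers 5 passed it, of which 3 were called lower (Kit, Cd48 and Meis1), 1 higher (Gata2, log2 difference 4.10) and 1 not called (Hoxa9). Kit lay at 50.4 and 66.9 against 2.62 and 3.91 CPM, Hoxa9 at 267 and 269 against 255 and 263 CPM, Cd34 at 0, 0, 0.102 and 0.105 CPM, and Slamf1 at 0 in all, so the defining markers of the labelled cell type were partly absent. B-lymphoid markers summed to between 0.136 and 0.373 CPM with Pax5 and Ms4a1 at 0. T and NK markers summed to 8.70 and 6.61 against 0.477 and 0.419 CPM with Cd3e, Cd3g, Trac and Ncr1 at 0. With MLL-ENL nearly all of that sum was Nkg7 and Thy1, both called lower. Macrophage markers summed to between 112 and 136 CPM with C1qa, C1qb, C1qc and Marco at 0 but Adgre1 and Cd68 called higher. Dendritic cell markers summed to between 43.1 and 57.5 CPM (H2-Aa at 0, Itgax called higher and H2-Ab1 lower), erythroid markers to between 1.12 and 1.53 CPM, megakaryocyte markers to between 1.49 and 2.58 CPM, mast cell markers to 18.0 and 14.9 against 7.53 and 8.90 CPM, and stromal and endothelial markers to 5.34 and 5.97 against 60.9 and 60.1 CPM, the last nearly all Pecam1. The part of these shifts in the PYHIN values was not tested, and in bulk RNA fewer expressing cells and less RNA per cell cannot be told apart.

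Ifi209 carried the largest difference in reads within the family. It encodes a PYHIN protein whose own function is little described, and lies on the plus strand of chromosome 1 (173630917 to 173647928, GRCm38). MLL-ENL libraries had 318 and 362 counts of it and MLL-ENL dYEATS libraries 36 and 30, or 11.9, 12.9, 1.23 and 1.05 CPM. Both MLL-ENL libraries were high, both MLL-ENL dYEATS libraries were low, and the groups did not overlap. The means were 12.4 ± 0.706 and 1.14 ± 0.127 CPM (SD, n = 2 libraries each), a level 10.9-fold lower in MLL-ENL dYEATS (95% interval of counting error 8.45 to 14.2). On the log2 scale the difference, MLL-ENL dYEATS minus MLL-ENL, was -3.44 ± 0.19 (SE).

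Ifi206, also a PYHIN gene of little described function, was lower by a like factor at a much lower level. It lies on the minus strand (173468485 to 173491041), next to Aim2. It had 22 and 25 counts with MLL-ENL and 4 and 1 with MLL-ENL dYEATS, which is 0.822, 0.889, 0.136 and 0.0349 CPM. The groups did not overlap, but the MLL-ENL dYEATS values rest on 5 counts in all. The level in MLL-ENL was 9.93 times that in MLL-ENL dYEATS, with a counting interval of 3.97 to 32.0, and the log2 difference was -3.25 ± 0.53 (SE). It was -4.45 without MLL-ENL dYEATS replicate 1 and -2.62 without replicate 2.

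Aim2 itself, the DNA sensor of the inflammasome, lies on the plus strand at the other end (173350879 to 173466040). It had 911 and 1126 counts with MLL-ENL and 1201 and 1199 with MLL-ENL dYEATS. The levels of 34.0, 40.0, 40.9 and 41.8 CPM put MLL-ENL replicate 1 below the other 3 libraries and MLL-ENL replicate 2 close to the MLL-ENL dYEATS pair. The means were 37.0 ± 4.26 and 41.4 ± 0.661 CPM (SD, n = 2 each), a ratio of 1.12, and the log2 difference was 0.16 ± 0.13 (SE). With MLL-ENL replicate 1 left out it was 0.05, and with MLL-ENL replicate 2 left out it was 0.28, where the spread came from the close MLL-ENL dYEATS pair and the gene was called higher.

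The remaining 7 members were at the limit of detection. Ifi204 had 2 and 5 counts with MLL-ENL and 0 and 0 with MLL-ENL dYEATS. Mndal, which like Ifi204 is known as a myeloid nuclear protein, had 0 and 3 against 0 and 0. Ifi207 had 1 and 0 against 2 and 2, Ifi203 had 1 and 0 against 1 and 1, and Ifi214 had 0 and 1 against 0 and 0. Ifi208 and Ifi213 had no counts, which allows up to 3 counts per library. No fold is given for any of these 7, since differences of this size were not detectable at this depth. Of the 10 members 8 had at least 1 count and 3 passed the filter on low counts (Aim2, Ifi206 and Ifi209). Of those 3, 2 were called lower and 0 higher by edgeR's quasi-likelihood test, where 9.84% of the 13245 genes tested were called lower and 7.04% higher. The members were chosen on this contrast, so nothing is read from that count. Ifi206, with 4 and 1 counts in the lower group, lay just inside detection, and Ifi204, with 7 counts in all, just outside. The other genes of the cluster named as PYHIN genes, Ifi202b, Ifi205, Ifi211 and the pseudogene Ifi203-ps, had 0 counts in all 4 libraries.

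**Figure D1:**
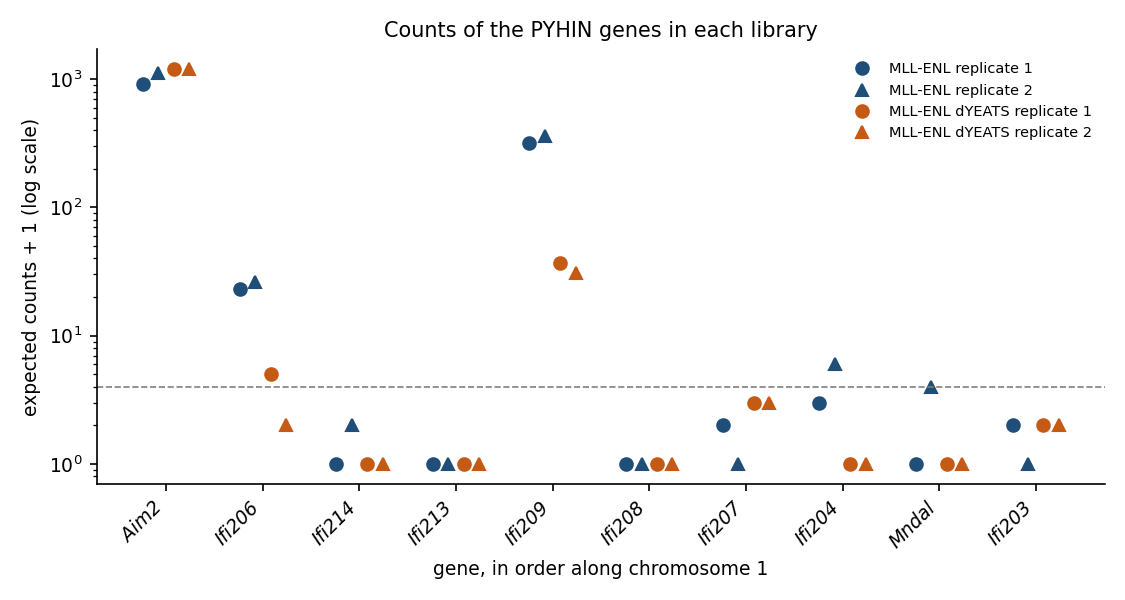
Expected counts (plus 1, log scale) of each of the 10 PYHIN members in the 4 libraries, in order along chromosome 1, 1 point per library. The dashed line marks 3 counts, the limit that a count of 0 allows. Aim2 lies between 911 and 1201 in all libraries, Ifi209 drops from 318 and 362 to 36 and 30, Ifi206 from 22 and 25 to 4 and 1, and the other 7 members lie at 5 or below.

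The sequences before these genes were set beside their levels, since Ifi209 has a near copy that was hardly detected. RefSeq (GRCm38.p6) gives a start for 9 of the 10 members, and the window from 250 bases before to 50 bases after it was read on the gene's strand. The Ifi214 and Ifi209 windows (chr1:173535908-173536207, minus strand, and chr1:173630609-173630908, plus strand) were 95.3% identical when aligned, with 287 identical bases, 12 mismatches and 2 gap columns. Ifi214 had 1 count over the 4 libraries and Ifi209 had 746. They are shown 5′ to 3′ so that the pair can be compared. Capitals mark a match of an IRF-type element, of the kind bound by interferon regulatory factors, and in Ifi209 the stretch aligned with it. The pattern searched, on both strands, was GAAA, any 2 bases and GAAA again.
Ifi214: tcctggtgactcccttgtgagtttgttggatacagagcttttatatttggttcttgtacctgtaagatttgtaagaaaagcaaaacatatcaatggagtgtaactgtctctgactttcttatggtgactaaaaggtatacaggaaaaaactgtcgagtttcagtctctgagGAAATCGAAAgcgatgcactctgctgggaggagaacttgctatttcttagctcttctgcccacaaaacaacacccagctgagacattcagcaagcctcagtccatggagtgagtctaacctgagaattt
Ifi209: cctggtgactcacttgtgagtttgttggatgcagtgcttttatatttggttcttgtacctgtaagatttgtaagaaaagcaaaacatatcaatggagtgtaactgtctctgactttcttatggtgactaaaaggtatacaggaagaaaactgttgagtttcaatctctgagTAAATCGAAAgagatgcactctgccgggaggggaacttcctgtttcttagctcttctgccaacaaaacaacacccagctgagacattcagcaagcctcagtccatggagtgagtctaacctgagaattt
Ifi209 lacked the pattern through its first base: counted from the first base of the element in Ifi214, the substitution was G1T, 1 substitution in all, and both stretches began 79 bases before the start. A match is only a match of letters, and no binding was measured.

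Promoter windows of 7 of the 9 members held the pattern, against those of 3.99% of 27025 genes. By window it was 3.44% of all 32851 RefSeq promoter windows of the same length. In all 7 the matching letters were GAAATCGAAA, and the match began 35 to 79 bases before the start. The 30 bases around it are given for the members other than Ifi214, with the match in capitals.
Ifi206: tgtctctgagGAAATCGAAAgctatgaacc
Ifi213: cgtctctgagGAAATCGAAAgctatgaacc
Ifi208: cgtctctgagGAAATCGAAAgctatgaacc
Ifi207: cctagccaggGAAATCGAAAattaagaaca
Mndal: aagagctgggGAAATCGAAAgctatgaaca
Ifi203: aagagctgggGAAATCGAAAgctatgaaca
Ifi213 and Ifi208 had the same 30 bases, as did Mndal and Ifi203. Their distances to the start were 40 bases in Ifi206, 73 in Ifi213, 58 in Ifi208, 41 in Ifi207, 36 in Mndal and 35 in Ifi203. Mndal and Ifi203 each have a second RefSeq start, whose window held another match of the pattern (TTTCTCTTTC, read on the other strand) in Mndal and none in Ifi203. The near copies included Mndal and Ifi203 (90.7% identical windows), Ifi213 and Ifi208 (89.5%) and Ifi206 and Ifi208 (87.5%). The GAS-type pattern TTCNNNGAA, to which STAT dimers bind, was in none of the 9 members' windows and in 8.3% of all windows. Nothing is read from its absence in so few windows. Among the other PYHIN genes of the cluster, Ifi202b had 1 GAS-type match and no IRF-type match. The windows of Ifi211 and Ifi205 held the IRF-type pattern with other letters, GAAATTGAAA.

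The members with the pattern were not those with the most reads. The 7 members with the pattern had 64 counts over the 4 libraries, 52 of them from Ifi206, whereas Aim2 had 4437 and Ifi209 had 746 without it. The Aim2 window (chr1:173420354-173420653, plus strand) was at most 53.9% identical to that of any other member, and is shown because the gene gave most of the reads. It lies inside the annotated extent of Aim2, which has 7 transcripts, and no window at another Aim2 start was read.
Aim2: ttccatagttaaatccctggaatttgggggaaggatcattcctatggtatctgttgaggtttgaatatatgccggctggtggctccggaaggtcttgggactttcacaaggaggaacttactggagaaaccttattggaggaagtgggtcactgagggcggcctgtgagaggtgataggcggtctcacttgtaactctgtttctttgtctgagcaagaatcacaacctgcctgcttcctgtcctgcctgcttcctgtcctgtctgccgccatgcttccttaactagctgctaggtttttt
Among tested genes outside the family, 362 had the IRF-type pattern in a promoter window, of which 54 were called lower (14.9%) and 22 higher (6.08%), with a median log2 difference of -0.07. For the GAS-type pattern it was 99 lower (12.5%) and 57 higher (7.17%) of 795 genes, with a median of -0.04. Over all tested genes the shares were 9.84% and 7.04% and the median was -0.01.

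Because copies are alike, reads could have been split between them, and the family was also summed. The 10 members together had 1255 and 1522 counts with MLL-ENL and 1244 and 1233 with MLL-ENL dYEATS, or 46.9, 54.1, 42.4 and 43.0 CPM. Both MLL-ENL dYEATS libraries lay below both MLL-ENL libraries. The means were 50.5 ± 5.13 and 42.7 ± 0.465 CPM (SD, n = 2 each), a ratio of 1.18, and the log2 difference was -0.24 ± 0.12 (SE). On the log2(FPKM + 1) and log2(FPKM + 0.1) scales it was -0.04, as Aim2 weighs more per length. The summed difference mixes an unlike pair: without Aim2 the other 9 members had 344 and 396 counts against 43 and 34, or 12.8, 14.1, 1.46 and 1.19 CPM. That sum was 10.2-fold lower in MLL-ENL dYEATS (log2 difference -3.34 ± 0.19 SE), and it was nearly all Ifi209.

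The make-up of the family shifted accordingly. Aim2 took 72.6% (95% Wilson interval 70.1 to 75.0) and 74.0% (71.7 to 76.1) of the family's counts with MLL-ENL, and 96.5% (95.4 to 97.4) and 97.2% (96.2 to 98.0) with MLL-ENL dYEATS. Ifi209 took 25.3% (23.0 to 27.8) and 23.8% (21.7 to 26.0) against 2.89% (2.10 to 3.98) and 2.43% (1.71 to 3.45). The intervals cover the counting of reads in each library, not the spread between libraries.

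**Figure D2:**
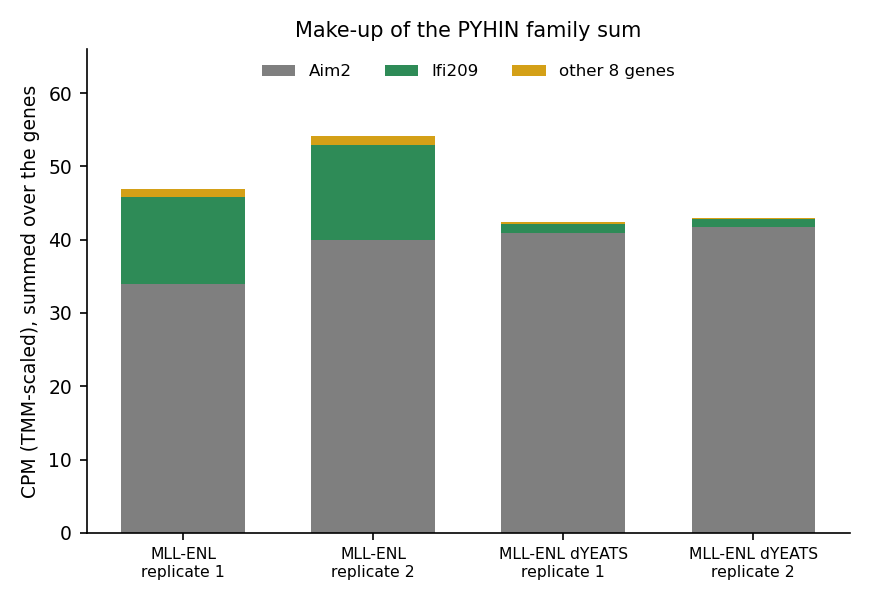
CPM of the PYHIN family in each of the 4 libraries as stacked bars from 0, divided into Aim2, Ifi209 and the other 8 members. The sum is 46.9 and 54.1 CPM with MLL-ENL and 42.4 and 43.0 CPM with MLL-ENL dYEATS, where almost all of it is Aim2.

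How far reads of each copy could be told apart was measured on the GENCODE M21 transcripts. Of all words of 50 bases in Aim2, 99.3% occurred in no other gene, and of words of 100 bases 100%. For Ifi209 the shares were 66.3% and 83.1%, and 33.4% of its 50-base words and 16.9% of its 100-base words occurred in Ifi214 (1182 and 598 words), nearly all of those it shared. For Ifi206 they were 74.4% and 86.9%, with 11.1% and 5.5% of its words in Ifi208. Ifi211 was the least distinct, at 27.2% and 43.1%. The read length does not stand in the sources used here. For Ifi214 85.4% of words of 50 bases and 92.7% of words of 100 bases occurred in no other gene, and it had 1 count. RSEM divides shared reads by estimate, so the split of reads from the words shared by Ifi209 and Ifi214 is uncertain. Which Ifi214 transcripts hold the unshared words was not examined. The sum of both is not affected by the split, and Ifi214 added 1 count to it.

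Levels of different genes were compared per length, on the deposited FPKM scale. Aim2 was at 27.0 and 35.2 FPKM with MLL-ENL and 33.6 and 34.6 FPKM with MLL-ENL dYEATS. Its mean lay above 73.2% of tested genes in MLL-ENL and 74.7% in MLL-ENL dYEATS. Ifi209 was at 3.70 and 4.71 FPKM against 0.46 and 0.48 FPKM, above 31.5% and 10.7% of tested genes. Ifi206 was at 0.28 and 0.33 FPKM against 0.05 and 0.01 FPKM. The order Aim2, Ifi209, Ifi206 therefore held in every library with no overlap between neighbours, and the ratio of Aim2 to Ifi209 in FPKM was 7.30 and 7.47 with MLL-ENL and 73.0 and 72.0 with MLL-ENL dYEATS. FPKM of the 7 sparse members were not ordered, because the length implied by their counts and FPKM changed between libraries (for Ifi203 from 169 to 3470 bases). That length also changed for Ifi209, at 3056 and 2763 bases with MLL-ENL and 2716 and 2218 with MLL-ENL dYEATS. In CPM the ratio of Aim2 to Ifi209 was 2.86 and 3.11 with MLL-ENL and 33.4 and 40.0 with MLL-ENL dYEATS.

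The lower levels were next placed on the chromosome. The 10 members span 592 kb, and with 1 Mb on each side the window holds 67 genes not named as PYHIN genes. Some of these lie inside the cluster, among them Gm18752, which shares 281 words of 50 bases with Ifi206. Of the 67 genes 6 passed the filter and 0 were called (edgeR's quasi-likelihood test). Over all tested genes 16.9% were called in either direction. All 6 lie before Aim2. Tagln2, which encodes the actin-binding transgelin-2, was at 453 and 362 against 422 and 419 CPM (adjusted p = 0.855), and Pigm, an enzyme of GPI anchor synthesis, had a log2 difference of 0.04 (adjusted p = 0.896). Dusp23, a small phosphatase 718 kb from Aim2, was at 7.95 and 4.02 against 2.42 and 2.97 CPM (log2 difference -1.15 ± 0.36 SE, adjusted p = 0.0920). It was called lower with DESeq2 (adjusted p = 0.0262) and with a replicate block (0.000803). With single libraries left out its log2 difference ranged from -1.56 to -0.58. It was called lower without MLL-ENL dYEATS replicate 2, and without either MLL-ENL library, when far more genes were called. Slamf9, a SLAM family receptor, had a log2 difference of -0.51 (adjusted p = 0.285), and the transcripts Gm37145 and Gm37125 had -0.92 (adjusted p = 0.0618) and -0.29 (adjusted p = 0.509). With a library of the wider MLL-ENL pair left out, when far more genes were called, Gm37145 was called lower without replicate 1 (0.0381) or 2 (0.00241, and 0.0466 with a replicate block), Slamf9 lower without replicate 2 (0.0452), and Tagln2 and Pigm in opposite directions without replicate 1 and without replicate 2. Beyond Ifi203 stand Ifi202b and Ifi205, with 0 counts, and 25 genes not named as PYHIN genes. Of these 25, 18 are olfactory receptor genes or pseudogenes, and none had more than 8 counts over the 4 libraries. Within the window, then, no gene outside the cluster passed the test with all 4 libraries, and Aim2 lay between Dusp23 on one side and the lower Ifi206 and Ifi209 on the other.

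**Figure D3:**
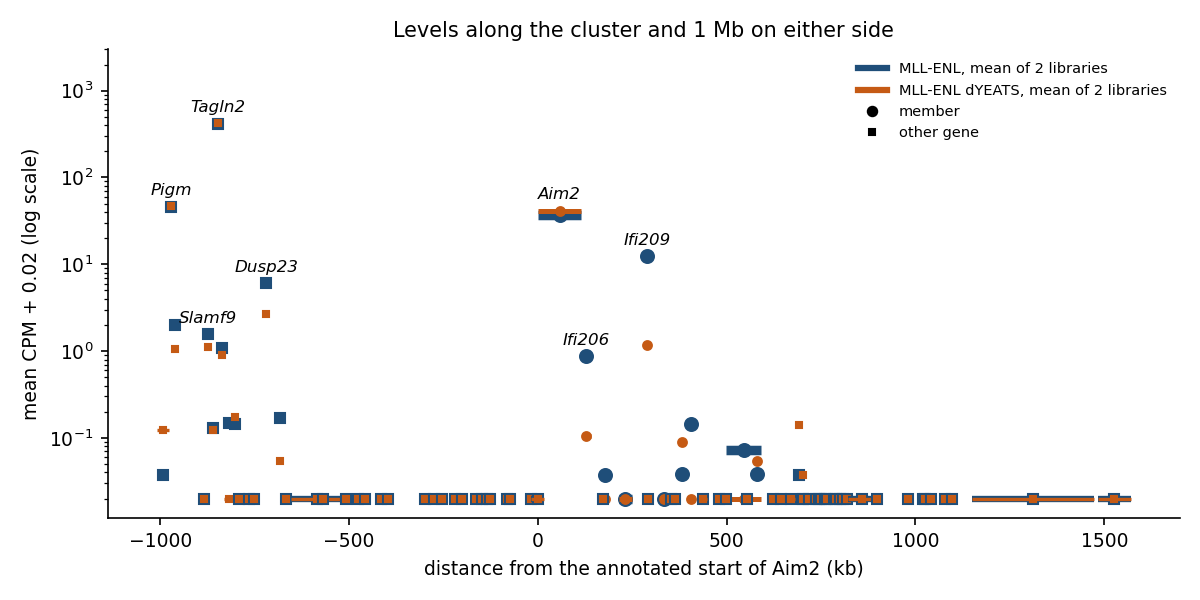
Mean CPM plus 0.02 (log scale) of each gene along the cluster and 1 Mb on each side, by distance in kb from the annotated start of Aim2. Circles are the 10 members, squares other genes, and bars the gene's extent, in blue for the mean of the 2 MLL-ENL libraries and orange for that of the 2 MLL-ENL dYEATS libraries. Aim2 lies at 37.0 and 41.4 CPM, the 2 colours part at Ifi206 and Ifi209, and nearly all genes beyond them lie at 0.

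Genes of nucleic acid sensing, inflammasomes and the interferon response were taken from lists chosen by function. The lists were drawn up with earlier results of these data known. Of 20 tested genes of inflammasomes and pyroptosis, a list that holds sensors parallel to AIM2 as well as the effectors they share, 6 were called lower (30.0%, against 9.84% of all tested genes) and 0 higher (against 7.04%), and the median log2 difference was -0.38. Nlrp3, the sensor of membrane damage and ion loss, fell from 4.48 and 5.30 to 1.23 and 1.47 CPM (log2 difference -1.86 ± 0.22 SE, edgeR adjusted p = 0.00525). Nlrc4, the inflammasome core for bacterial flagellin, fell from 18.0 and 21.9 to 9.06 and 8.48 CPM (adjusted p = 0.00670). Panx1, a channel of the plasma membrane, fell from 26.0 and 20.0 to 11.8 and 11.4 CPM (adjusted p = 0.0155). The calls of Nlrp3, Nlrc4 and Panx1 were each lost in 1 alternative fit. The other calls, of Casp4, Card9 and Casp1, were less firm and were lost in 5, 3 and 7 of 14 alternatives.

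The partners of AIM2 itself were named after their values were seen. The interleukin genes Il1b and Il18 did not pass the filter on low counts. Il1b had 6 and 6 counts with MLL-ENL and 5 and 5 with MLL-ENL dYEATS, and Il18 had 2 and 1 against 4 and 2. Pycard, the adaptor, was at 64.6 and 50.6 CPM with MLL-ENL and 39.4 and 40.4 CPM with MLL-ENL dYEATS. Its log2 difference of -0.53 ± 0.15 SE was not called (edgeR adjusted p = 0.0723). The adjusted p was 0.0498 with DESeq2 and 0.0282 in edgeR with the replicate number as a block. Pycard was also called lower with either MLL-ENL library left out, when far more genes were called. Casp1 fell from 16.7 and 14.9 to 10.5 and 10.7 CPM (log2 difference -0.58 ± 0.13 SE, adjusted p = 0.0374), a call that was lost in 7 of 14 alternatives, among them DESeq2 (adjusted p = 0.0757) and the fits without MLL-ENL dYEATS replicate 1 (0.408) or 2 (0.348). Gsdmd, the pore-forming substrate, was at 73.8 and 60.6 against 55.1 and 53.3 CPM (adjusted p = 0.180). Its log2 difference ranged from -0.44 to -0.16 with single libraries left out. It was called lower only with either MLL-ENL library left out, when far more genes were called.

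Of 26 tested genes of cytosolic DNA sensing and the STING route, 4 were called lower (15.4%, against 9.84% of all tested genes) and 1 higher (3.85%, against 7.04%), with a median of -0.27. Enpp1, which breaks down the STING ligand cGAMP outside the cell, fell from 4.56 and 4.59 to 0.136 and 0.0349 CPM (log2 difference -5.66 ± 0.41 SE, edgeR adjusted p = 0.00109), or -6.87 and -5.03 with MLL-ENL dYEATS replicate 1 or 2 left out. Zbp1, a sensor of Z-form nucleic acid, fell from 3.14 and 2.42 to 0.409 and 0.523 CPM (adjusted p = 0.00475). Rnaseh2b, a subunit of the nuclease that removes ribonucleotides from DNA, fell from 49.6 and 46.5 to 32.0 and 30.4 CPM (adjusted p = 0.0198), a call lost when MLL-ENL dYEATS replicate 1 (0.279) or 2 (0.383) was left out. Ticam1, which encodes the adaptor TRIF and was chosen after its values were seen, fell from 19.7 and 20.9 to 13.5 and 13.7 CPM (adjusted p = 0.0272), a call lost in 7 of 14 alternatives, with adjusted p = 0.0507 in DESeq2 and 0.371 or 0.335 with MLL-ENL dYEATS replicate 1 or 2 left out. The member that rose was Xrcc5, the Ku80 subunit that binds DNA ends, from 0.299 and 0.533 to 1.46 and 1.33 CPM (adjusted p = 0.0275), a call lost with DESeq2 (0.0684) and with MLL-ENL dYEATS replicate 1 left out (0.0648). The sensor and adaptor at the centre of the route, named after their values were seen, did not pass the test with all 4 libraries. Cgas was at 46.2 and 39.7 against 43.1 and 48.1 CPM (adjusted p = 0.696), and Tmem173, which encodes STING, at 65.4 and 73.2 against 58.3 and 56.6 CPM (adjusted p = 0.173). With MLL-ENL replicate 1 left out Cgas was called higher (0.0172) and Tmem173 lower (2.03e-06), and with MLL-ENL replicate 2 left out Tmem173 was called lower (0.00312).

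RNA sensors and endosomal Toll-like receptors had 3 genes higher (15.8%, against 7.04% of all tested genes) and 2 lower (10.5%, against 9.84%) of 19 tested, with a median of 0.17. Tlr7, the receptor of single-stranded RNA, rose from 2.02 and 4.09 to 11.0 and 10.8 CPM (log2 difference 1.83 ± 0.32 SE, or 2.43 with MLL-ENL replicate 2 left out; edgeR adjusted p = 0.0184), and Tlr13, a mouse receptor of bacterial ribosomal RNA, from 5.38 and 6.47 to 12.3 and 11.9 CPM (adjusted p = 0.0114). The third was Tlr8, a related receptor chosen after its values were seen, with 0 and 1 counts in MLL-ENL and 24 and 18 in MLL-ENL dYEATS (adjusted p = 0.0101). Irak4, a kinase of Toll-like receptor signalling, fell from 69.7 and 65.6 to 37.4 and 36.5 CPM (adjusted p = 0.00625). Eif2ak2, which encodes the kinase PKR, fell from 96.3 and 92.7 to 62.6 and 61.5 CPM (adjusted p = 0.0174). Both of these calls were lost when MLL-ENL dYEATS replicate 1 (adjusted p = 0.0751 and 0.343) or 2 (0.0964 and 0.384) was left out.

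The interferon route that can induce PYHIN genes was covered by a pair of lists. Of 18 tested interferon receptors, STATs and IRFs, 1 was called in each direction (5.56%, against 9.84% of all tested genes lower and 7.04% higher), with a median of -0.08, and the ligand genes Ifnb1, Ifna4 and Ifng had 0 counts. Irf5, a transcription factor of myeloid cytokine genes, rose from 2.35 and 1.99 to 7.77 and 7.15 CPM (edgeR adjusted p = 0.00344). Jak1, a kinase bound to interferon receptors, fell from 163 and 209 to 92.0 and 90.6 CPM (adjusted p = 0.0105).

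Of 29 tested interferon-stimulated genes 9 were called lower (31.0%, against 9.84% of all tested genes) and 2 higher (6.90%, against 7.04%), with a median of -0.35, and 18 were not called. Ifitm1, which restricts virus entry, fell from 82.0 and 68.7 to 1.36 and 1.71 CPM (log2 difference -5.61 ± 0.19 SE, edgeR adjusted p = 0.000284). Oas1a, an oligoadenylate synthetase, fell from 24.8 and 19.2 to 0.749 and 1.08 CPM (adjusted p = 0.000489). Trim30a, a TRIM protein induced by interferon, fell from 12.9 and 18.3 to 2.18 and 1.81 CPM (adjusted p = 0.00159). The 2 that rose had low levels: Oas3, another oligoadenylate synthetase, went from 0.299 and 0.284 to 0.954 and 1.43 CPM (adjusted p = 0.0214) and Slfn5, of the schlafen family, from 1.12 and 1.17 to 2.49 and 2.65 CPM (adjusted p = 0.0222). Neither passed with DESeq2 (adjusted p = 0.0515 and 0.0803). Over the 5 lists 22 of 112 tested genes were called lower (19.6%, against 9.84% of all tested genes) and 7 higher (6.25%, against 7.04%).

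**Figure D4:**
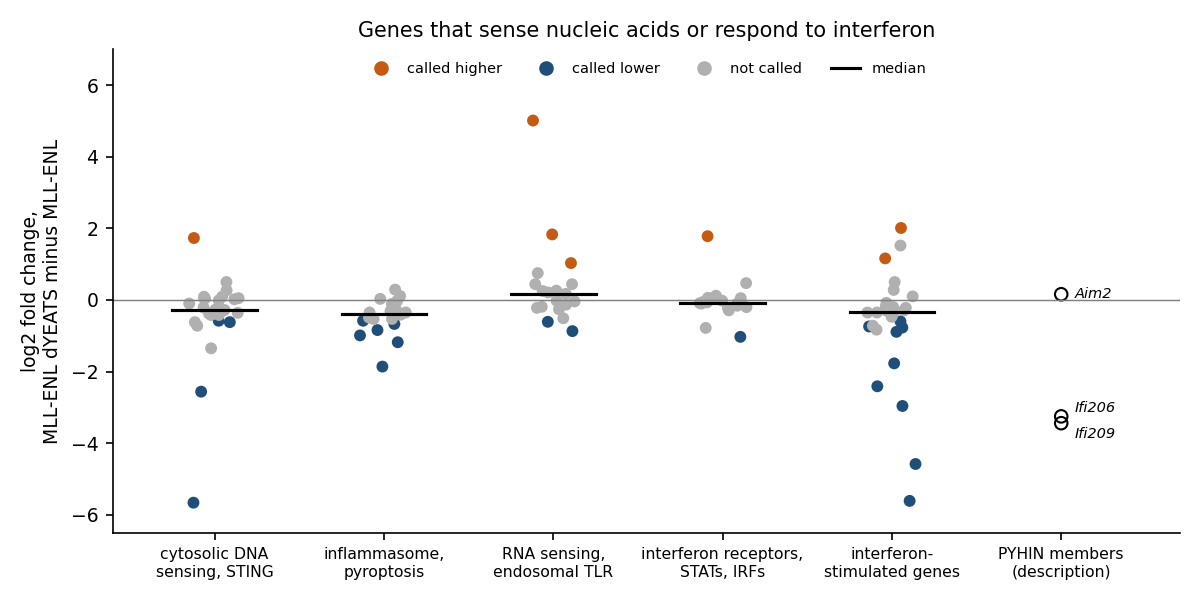
Log2 difference, MLL-ENL dYEATS minus MLL-ENL, of each tested gene of the 5 pathway lists and of the 3 PYHIN members with a fit, 1 point per gene. Colour shows whether a gene was called by edgeR's quasi-likelihood test, the black line is the list's median, and open circles are the PYHIN members, shown as a description without their calls. Medians lie between -0.38 (inflammasome) and 0.17 (RNA sensing).

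The genes whose levels ran most like the family sum over the 4 libraries (Euclidean distance of centred log2(CPM + 0.5), among 9195 genes) were Ambra1, Sft2d3, Etaa1, Spata2 and Camkk1, at distances of 0.0170 to 0.0263. Ambra1, for example, was at 41.5, 48.1, 37.2 and 37.6 CPM. Since the sum joins unlike genes, the same was done for Ifi209 and Aim2, a step added after the values were seen. Nearest to Ifi209 were Tmlhe, Elavl2, Tnfsf12, Hspa2 and Acp5 (distances 0.119 to 0.260), with Elavl2 at 294, 347, 41.2 and 39.9 CPM. Among those nearest to Aim2 were Mtr, Tent4b, Vma21 and Rmi1 (0.0149 to 0.0178). With 4 libraries such likeness is a description of these libraries.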

How the data were processed

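Per the submitters' processing notes, the tools were FastQC 0.11.8, cutadapt 2.3, STAR 2.7.8a and RSEM 1.3.3 with the build GRCm38. The authors deposited expected counts per gene (RSEM estimates, whole as deposited) and FPKM, scaled by them for length and depth. Strand setting, annotation and the counting of shared reads do not stand in the sources used here, so overlapping, antisense and duplicated genes are uncertain: the Mndal gene model overlaps Ifi211 and most of Ifi203. Of the identifiers 55240 matched GENCODE M21, which gave positions. The 4 libraries held 28121268, 27812855, 28814798 and 28177480 counts. Each library was entered as a replicate. Both pairs differed by more than sampling noise (chi-square per degree of freedom 89.8 and 1.99), which does not make technical libraries independent.

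Counts were rounded to whole numbers, filtered with filterByExpr (13245 genes left), scaled by TMM and fitted with edgeR 4.0.16 (glmQLFit, legacy, and glmQLFTest; R 4.3.3) without a block. Adjusted p-values are Benjamini-Hochberg over all tested genes, and a call is an adjusted p under 0.05. SE is the log2 difference over the square root of F. FPKM were used for levels between genes. Promoter windows came from RefSeq (GRCm38.p6).

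Members and lists were chosen with earlier results of these data known. Named were the 10 members, tested neighbours within 1 Mb, per list the 3 called genes with the smallest p in each direction at 1 CPM or more in the higher group, and the 5 genes nearest to the family sum at 5 CPM or more in MLL-ENL, without predicted genes. Alternatives were other scalings, no filter or 5 CPM in 2 libraries, a replicate block, DESeq2 1.42.0, limma 3.58.1 on log2(FPKM + 1) or log2(FPKM + 0.1), and each library left out.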

Additional observations from a re-analysis of the deposited data

How the results depend on the processing

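The log2 differences of Ifi209 and Ifi206 kept their sign in every alternative in which they were fitted. Both were chosen on this contrast and every alternative reuses the same libraries, so nothing is read from the kept sign. Ifi206 was not tested with a minimum of 5 CPM in 2 libraries, where 1 member was called lower, as with limma on unfiltered log2(FPKM + 0.1). On log2(FPKM + 1) and log2(FPKM + 0.1) Ifi209 had -1.82 and -2.91 and Ifi206 -0.34 and -1.65, since a pseudocount shrinks low genes. With single libraries left out 2 to 2 members were called lower and 0 to 1 higher (Aim2, without MLL-ENL replicate 2). The family sum of -0.24 ranged from -0.34 to -0.13 with single libraries left out, was -0.04 in all 3 limma fits and -3.34 without Aim2. Genes called higher (932) and lower (1303) numbered 545 and 805 at 5 CPM, 253 and 347 with limma on unfiltered log2(FPKM + 0.1), and 548 to 4598 and 844 to 4501 with a library left out, and limma on log2(FPKM + 1) called 837 lower. In the 5 pathway lists 7 higher and 22 lower became 3 higher at 5 CPM, 4 higher with DESeq2, 1 higher and 4 lower with limma on unfiltered values, and 5 to 31 and 11 to 60 with a library left out. Of 18 genes that the naming rule took from the lists 15 lost their call in at least 1 alternative and 0 changed sign. Of genes not called, some changed sign with a library left out, over ranges of -0.02 to 0.20 (Cgas), -0.11 to 0.21 (Tagln2) and -0.14 to 0.24 (Pigm). The cause was not tested. With 1 library in a group, that library is assumed to vary like the other group's.

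Same-numbered libraries did not deviate together (correlation -0.04 over 13245 genes), so the numbers are not taken to pair them. With the replicate block 1435 genes were called higher, and the family sum was -0.24.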
